A study of Rattus norvegicus with 48 samples.

Results

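Plasma levels of 5 mature miRNAs are described here: miR-106b-5p, miR-106b-3p, miR-93-5p and miR-25-3p, which come from the cluster of miR-106b, miR-93 and miR-25, and miR-363-3p from the miR-106a-363 cluster. They were chosen by name, as paralogues of the miR-17-92 cluster. The rule uses no measured value, but earlier results of these data were known when it was set. They are 5 of the 645 rat miRNAs counted. All 5 had reads in every one of the 48 samples.

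Small RNA was sequenced from tail vein EDTA plasma of 12 male rats, 12 weeks old at surgery, each of which carried 1 drilled defect of the calvaria. The methods name the strain Sprague-Dawley and another passage of the same study names it Wistar. Each rat was bled before surgery (week 0, the baseline) and 1, 4 and 8 weeks after it. The 6 rats with the most new bone by micro-computed tomography are called strong regenerators and the 6 with the least weak regenerators. Both groups mix rats with an empty defect, rats with a collagen-hydroxyapatite scaffold carrying plasmid for BMP2 and miR-590-5p, and rats with a scaffold carrying extracellular vesicles of mesenchymal stem cells. Plain scaffolds occur among the strong regenerators only. The treatment of each rat was not used here. All rats were operated on, so time since surgery, ageing and whatever else differed between the weekly samples cannot be told apart.

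A miRNA is cut from a hairpin precursor, and each side of the hairpin can give a mature strand, the 5p and the 3p arm. One strand is usually loaded onto an Argonaute protein and kept, and the other is mostly lost. Bases 2 to 8 of the mature strand, the seed, pair with target mRNAs, so miRNAs with the same seed share many predicted targets. The miR-17-92 cluster and its paralogues are known for promoting cell cycle progression and survival, through targets such as the cell cycle inhibitor Cdkn1a and the pro-apoptotic factor Bim. miR-25-3p, miR-93-5p and miR-92a-3p are also abundant in blood cells, red blood cells included.

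The sequences show which of the 5 can act through the same targets and how readily their reads could be mistaken for one another. They are the mature strands of RefSeq (build GRCr8), and the capitals mark the seed. A sequence was found for 583 of the 645 miRNAs and for all 5 of these.
rno-miR-106b-5p: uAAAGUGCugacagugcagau
rno-miR-93-5p: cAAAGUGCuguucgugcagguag
rno-miR-106b-3p: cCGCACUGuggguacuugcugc
rno-miR-25-3p: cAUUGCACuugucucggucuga
rno-miR-363-3p: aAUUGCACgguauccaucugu

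miR-106b-5p and miR-93-5p share 1 seed, miR-25-3p and miR-363-3p share another, and miR-106b-3p has a seed of its own. Past the seed the pairs part: miR-106b-5p and miR-93-5p differ at 5 of 21 positions, and miR-25-3p and miR-363-3p differ at 13 of 21. Aligned from the first base, no counted miRNA with a known sequence was closer than 3 mismatches to miR-106b-5p, miR-93-5p or miR-25-3p. Those with a sequence were 583 of 645, and the rest could not be compared. Both miR-17-5p and miR-20a-5p lay at that distance from miR-106b-5p, as did miR-20b-5p from miR-93-5p and miR-92a-3p from miR-25-3p. The authors' assignment to miRNAs allowed 1 mismatch.

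The 3 hairpins of the cluster lie on the minus strand of chromosome 12 within 494 bases, inside the span of Mcm7, which encodes a subunit of the replicative helicase. In GRCr8 the mature strands are at chr12:22157103-22157123 (miR-106b-5p), chr12:22157062-22157083 (miR-106b-3p), chr12:22156894-22156916 (miR-93-5p) and chr12:22156652-22156673 (miR-25-3p). miR-363-3p is on the minus strand of the X chromosome, at chrX:137342788-137342808. Its cluster of 5 hairpins spans 871 bases.

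The levels span a wide range although the strands come from neighbouring hairpins. Levels are given in RPM, the reads of a miRNA per 1000000 reads assigned to any miRNA in the sample. miR-25-3p averaged 39154 RPM over the 48 samples, 3.92% of all miRNA reads and rank 9 of the 645 miRNAs. miR-93-5p followed at rank 10 with 25483 RPM, or 2.55%. The other members were far below these: miR-363-3p averaged 616 RPM (rank 98), miR-106b-3p 557 RPM (rank 101) and miR-106b-5p 164.6 RPM (rank 153). The mature strands are 21 to 23 bases long, so RPM was not divided by length, but ligation and amplification differ between sequences and a ratio of RPM between miRNAs is not a ratio of molecules. Counting error mattered most for miR-106b-5p, which had 26 to 427 reads per sample, against at least 10402 for miR-93-5p and at least 15353 for miR-25-3p.

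Sequencing depth, counted as miRNA reads, lay between 393259 and 1586398 (median 796311). All 12 week 8 samples stood apart in the extraction spike-in UniSp2, a synthetic RNA, with 91.1 to 144 UniSp2 reads per 1000 miRNA reads. The 36 earlier samples had 23.3 to 60.4. Week 8 and this shift coincide in every rat, so they cannot be told apart, and every week 8 value below is relative to the other miRNAs of the same sample unless the spike-in is named. Plasma collects RNA from many cell types, and fewer cells of a type and less RNA per cell cannot be told apart.

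Week 8 against baseline gave the largest change of 4 of the 5 members, in different directions. The exception was miR-106b-3p, which passed the test at no week. Relative to the other miRNAs, miR-106b-5p fell to 0.495 times baseline while miR-93-5p rose to 1.58 times, miR-25-3p to 1.40 times and miR-363-3p to 2.01 times; with reads scaled to UniSp2 in place of the other miRNAs, all 5 members were lower at week 8, as were 77.2% of the 645 miRNAs tested in that way. Relative to the other miRNAs, 3 of 5 members were called higher and 1 lower, by an edgeR quasi-likelihood test with a false discovery rate (FDR) under 0.05. Of all 620 miRNAs tested, 40.3% were called, 14.2% higher and 26.1% lower. The direction thus depended on what week 8 was measured against. Scaling to UniSp2 moves all miRNAs of a sample together, so it leaves the order of the members as it is by construction.

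miR-106b-5p, an AAAGUGC-seed strand, held 147 RPM at its lowest, 186 at the median and 241 at its highest before surgery. At week 8 the same 12 rats had 66.1, 85.7 and 111 RPM. The highest week 8 sample was below the lowest baseline sample, so the groups did not overlap, and the level was lower in 12 of 12 rats. Such separation was not particular to it: the paralogues miR-18a-3p and miR-19b-3p separated too, with 12 of 12 rats higher. How many of all miRNAs separate in this way was not counted. The log2 fold change was −1.01 (SE 0.15, FDR 2.4e-07). Under UniSp2 scaling it was −2.90.

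miR-93-5p, which carries the same seed, went the other way relative to the other miRNAs, and was lower only when scaled to UniSp2 (−1.28, FDR 5.9e-10). Its lowest, median and highest levels were 16463, 21037 and 25500 RPM at baseline and 23818, 31476 and 37865 RPM at week 8. It was higher in 12 of 12 rats, and 10 of the 12 week 8 samples were above every baseline sample. The log2 fold change was 0.66 (SE 0.12, FDR 1.2e-05).

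miR-25-3p rose with miR-93-5p, by 0.48 on the log2 scale (SE 0.11, FDR 0.00048), but was at −1.45 (FDR 1e-12) when scaled to UniSp2. Its lowest, median and highest levels were 30328, 34207 and 39140 RPM at baseline and 34903, 45747 and 54551 RPM at week 8. All 12 rats were higher at week 8, and 8 of the 12 samples lay above every baseline sample.

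miR-363-3p, the X-linked strand with the seed of miR-25-3p, had the largest increase of the 5. Before surgery it ranged from 252 RPM to 897 RPM around a median of 476. At week 8 it ranged from 532 RPM to 1413 RPM around a median of 903. The 2 ranges overlap, but each rat was above its own baseline level. The log2 fold change was 1.01 (SE 0.18, FDR 7.2e-06), against −0.90 (FDR 1.7e-05) with UniSp2 scaling.

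miR-106b-3p, cut from the same hairpin as miR-106b-5p, did not pass the test at week 8. Its lowest, median and highest levels were 379, 531 and 728 RPM at baseline and 412, 552 and 655 RPM at week 8, and 7 of 12 rats were higher. The log2 fold change was 0.10 (SE 0.14, FDR 0.572). Scaled to UniSp2 it was −1.82 (FDR 2.1e-13).

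The 310 miRNAs with a mean of at least 10 RPM had a median week 8 log2 fold change of −0.12, or −2.01 when reads were scaled to UniSp2. Relative to the median of −0.12, miR-106b-5p was at −0.89, miR-106b-3p at 0.23, miR-25-3p at 0.61, miR-93-5p at 0.78 and miR-363-3p at 1.13.

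**Figure D1:**
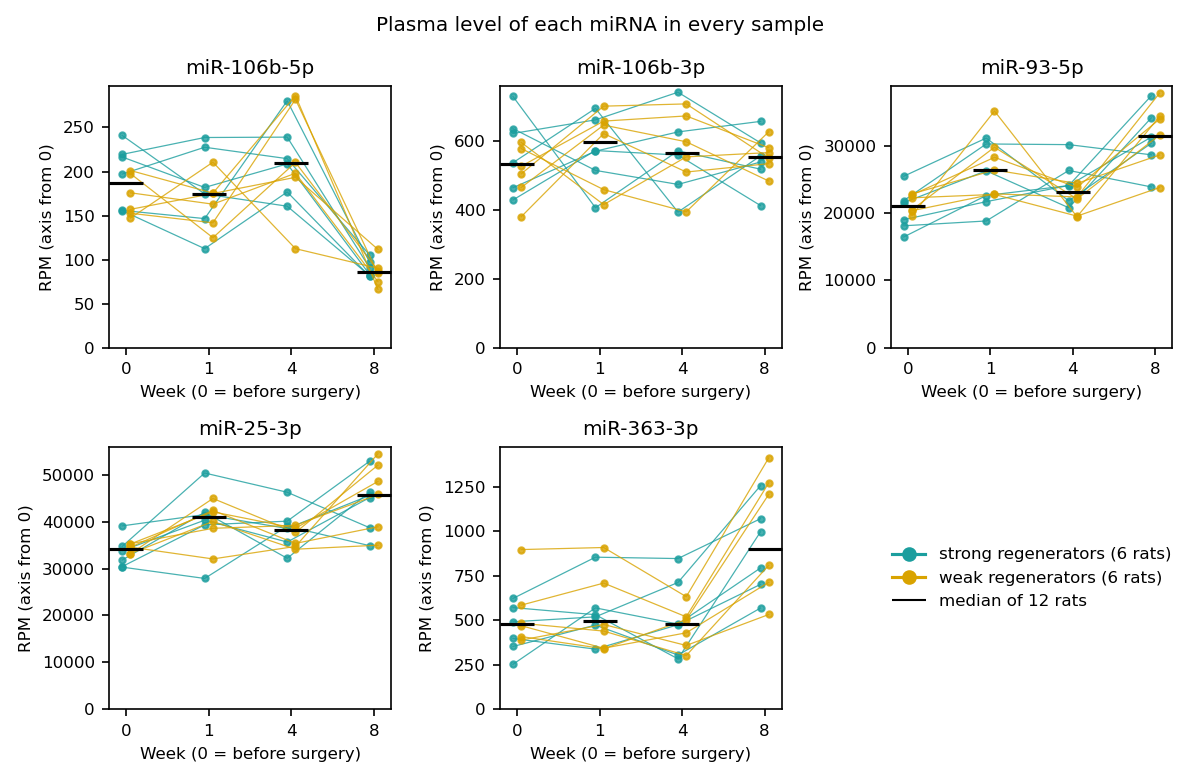
Level of each of the 5 miRNAs in RPM (vertical axis, from 0) at weeks 0, 1, 4 and 8; each line is 1 rat, teal for the 6 strong and gold for the 6 weak regenerators, and black bars are medians of 12 rats. All 12 week 8 points of miR-106b-5p lie below its baseline points, while miR-93-5p, miR-25-3p and miR-363-3p end above each rat's own baseline as a share of miRNA reads, and below it on average when scaled to UniSp2.

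Week 1 against baseline gave a smaller shift, carried by the 2 abundant members. miR-93-5p was higher in 12 of 12 rats and miR-25-3p in 10 of 12, relative to the other miRNAs. With reads scaled to UniSp2 neither was called, at 0.15 (FDR 0.570) and 0.05 (FDR 0.860). The call took in 2 of the 5 members, both higher, where 21.6% of the 232 miRNAs tested were called, 12.5% higher and 9.05% lower.

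For miR-93-5p the lowest, median and highest levels at week 1 were 18845, 26372 and 35209 RPM. Of the 12 samples, 7 were above every baseline sample. The log2 fold change was 0.45 (SE 0.12, FDR 0.0076).

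For miR-25-3p they were 27909, 40954 and 50434 RPM, and the log2 fold change was 0.36 (SE 0.11, FDR 0.0272). The range was wide: 9 samples lay above every baseline sample and 1 lay below all of them. The call was lost without any 1 of the weak regenerators 7, 16 and 25 or the strong regenerators 17 and 23, with FDR up to 0.103, and without a filter on low counts (FDR 0.0619).

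The other 3 members did not pass at week 1. miR-106b-5p was at 0.01 (SE 0.15, FDR 0.97) with 4 of 12 rats higher, miR-106b-3p at 0.21 (SE 0.14, FDR 0.306) with 8 higher and miR-363-3p at 0.21 (SE 0.18, FDR 0.423) with 7 higher. Their median levels were 175, 596 and 497 RPM.

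At week 4 none of the 5 members was called, where 4.19% of 645 miRNAs were called by edgeR, 0.155% higher and 4.03% lower. In the edgeR test 3 members had an unadjusted p under 0.05, as did 115 of all 645 miRNAs. miR-106b-5p was at 0.34 (SE 0.15, FDR 0.215), miR-25-3p at 0.27 (SE 0.11, FDR 0.200) and miR-93-5p at 0.27 (SE 0.12, FDR 0.230). These values are relative to the other miRNAs. Scaled to UniSp2, miR-106b-5p was at −0.04, miR-25-3p at −0.10 and miR-93-5p at −0.09, and none was called. DESeq2 also called none of the 5. The rats were less uniform than at week 8: 11 of 12 were higher for miR-25-3p, 9 for miR-106b-5p and 8 for miR-93-5p.

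Median week 4 levels were 209 RPM for miR-106b-5p, 564 for miR-106b-3p, 23136 for miR-93-5p, 38159 for miR-25-3p and 476 for miR-363-3p. These lie within the baseline range of each miRNA. The low level of miR-106b-5p was thus seen at week 8 and not at week 4, where its samples ran from 112 to 286 RPM.

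The opposite arms of the same hairpins add a second view of each locus. The strand that is scarcer in these samples is shown for the hairpins miR-93, miR-25 and miR-363.
rno-miR-93-3p: aCUGCUGAgcuagcacuucccga
rno-miR-25-5p: aGGCGGAGacacgggcaauugc
rno-miR-363-5p: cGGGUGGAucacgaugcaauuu

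miR-93-3p averaged 130 RPM (15 to 311 reads per sample) and was lower at week 8, by −0.61 on the log2 scale (SE 0.19, FDR 0.0068). Its lowest, median and highest levels were 80.1, 145 and 210 RPM at baseline and 38.1, 91.3 and 121 RPM at week 8. It was lower in 10 of 12 rats, yet the ranges overlapped. Without the weak regenerator 7 the FDR was 0.0692, and without the strong regenerator 17 it was 0.0659. Scaled to UniSp2 it was also lower, at −2.46.

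miR-25-5p averaged 368 RPM and did not pass at any week. At week 8 it was at 0.22 (SE 0.13, FDR 0.169), with a median of 375 RPM against 327 at baseline and 10 of 12 rats higher. It was called higher with the size factors of RLE (0.37, FDR 0.0135) and with DESeq2 (0.37, FDR 0.0065), but lower with UniSp2 scaling (−1.65).

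miR-363-5p was near the limit of counting, with 0 reads in 23 of 48 samples and at most 4. It was called lower at week 8, but no fold is given for so few reads.

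**Figure D2:**
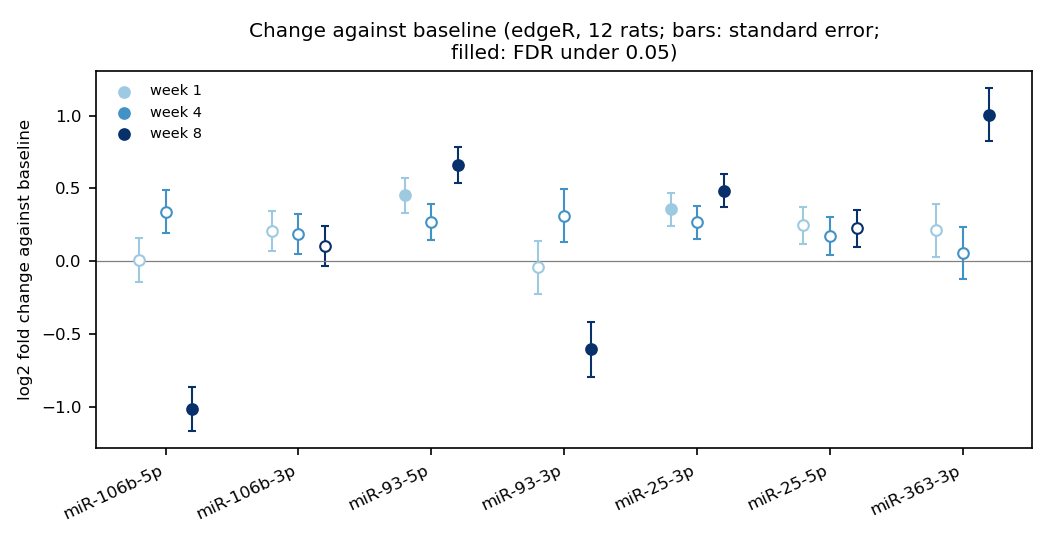
Log2 fold change against baseline (vertical axis) at weeks 1, 4 and 8 for the 5 miRNAs and the opposite arms miR-93-3p and miR-25-5p; points are edgeR estimates over 12 rats, bars are standard errors and filled points have FDR under 0.05. At week 8 miR-106b-5p sits at −1.01 and miR-363-3p at 1.01 relative to the other miRNAs; scaled to UniSp2, all 7 are below 0 at week 8.

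Ratios of reads within 1 sample do not depend on the reference, and they give the members' unequal changes directly. Each ratio was compared with the same rat's baseline by an exact two-sided sign-flip permutation test over 12 rats, 7 ratios at 3 weeks making 21 tests with Benjamini-Hochberg adjustment. 8 of the 21 were called. Ratios of other strand pairs were not tested, so how often such changes or separations occur among all miRNAs is not known. The arms of miR-142 and of miR-144, given below, also moved in opposite directions at week 8 relative to the other miRNAs.

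The arms of the miR-106b hairpin separated most clearly. The ratio of miR-106b-3p to miR-106b-5p had a median of 2.80 at baseline (1.77 to 4.06) and 6.35 at week 8 (4.31 to 8.27). The lowest week 8 ratio exceeded the highest baseline ratio, and 12 of 12 rats were higher. The 3p arm made up 73.7% of the reads of this hairpin at the baseline median and 86.5% at the week 8 median. The change was 1.11 on the log2 scale (SD 0.48, n = 12, exact permutation p = 0.00049, adjusted 0.0026), and this p is the smallest that 12 rats can give.

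At weeks 1 and 4 the same ratio was at 0.21 (SD 0.57, exact permutation adjusted p = 0.435) and −0.12 (SD 0.64, adjusted p = 0.622) against baseline. Medians were 3.19 and 2.66. The shift between the arms was therefore detected at week 8 and not before.

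In the miR-93 hairpin it was the scarce 3p arm that lost ground at week 8. It held 0.714% of the hairpin's reads at the baseline median and 0.302% at week 8. The log2 ratio of miR-93-3p to miR-93-5p changed by −1.26 (SD 0.95, n = 12, exact permutation p = 0.00098, adjusted 0.0041) and fell in 11 of 12 rats. At week 1 it changed by −0.45 (SD 0.54, adjusted p = 0.04999), a call kept in 2 of the 12 fits that each left out 1 rat.

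The arms of the miR-25 hairpin moved least. The share of miR-25-5p was 0.981% at the baseline median and 0.865% at week 8. The change of −0.24 (SD 0.33, n = 12, exact permutation adjusted p = 0.04999) was kept in 3 of the 12 leave-outs.

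Between strands of the same seed, miR-106b-5p lost ground to miR-93-5p. Their log2 ratio changed by −1.64 at week 8 (SD 0.63, n = 12, exact permutation p = 0.00049, adjusted 0.0026), in the same direction in all rats, and the groups did not overlap. miR-106b-5p reads were 0.905% of the 2 strands together at the baseline median and 0.281% at week 8. At week 1 the change was −0.43 (SD 0.50, adjusted p = 0.04999), kept in 4 of the 12 leave-outs, and at week 4 it was 0.03 (SD 0.63, adjusted p = 0.958).

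miR-25-3p and miR-93-5p, the abundant strands of neighbouring hairpins, stayed close. Their ratio had a median of 1.63 at baseline and 1.44 at week 8, a change of −0.18 (SD 0.11) that had the same sign in all 12 rats (exact permutation p = 0.00049, adjusted 0.0026). It is small, yet the rats varied so little that it passed. Week 8 ratios ran from 1.35 to 1.52 and baseline ratios from 1.48 to 1.85, so the groups overlapped slightly.

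miR-363-3p gained on miR-25-3p, the other member with its seed, by 0.54 at week 8 (SD 0.36, 12 of 12 rats, exact permutation p = 0.00049, adjusted 0.0026). The ratio of miR-92a-3p to miR-25-3p, strands of the same seed from different clusters, changed by −0.07 (SD 0.20, adjusted p = 0.444), with 6 of 12 rats higher.

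**Figure D3:**
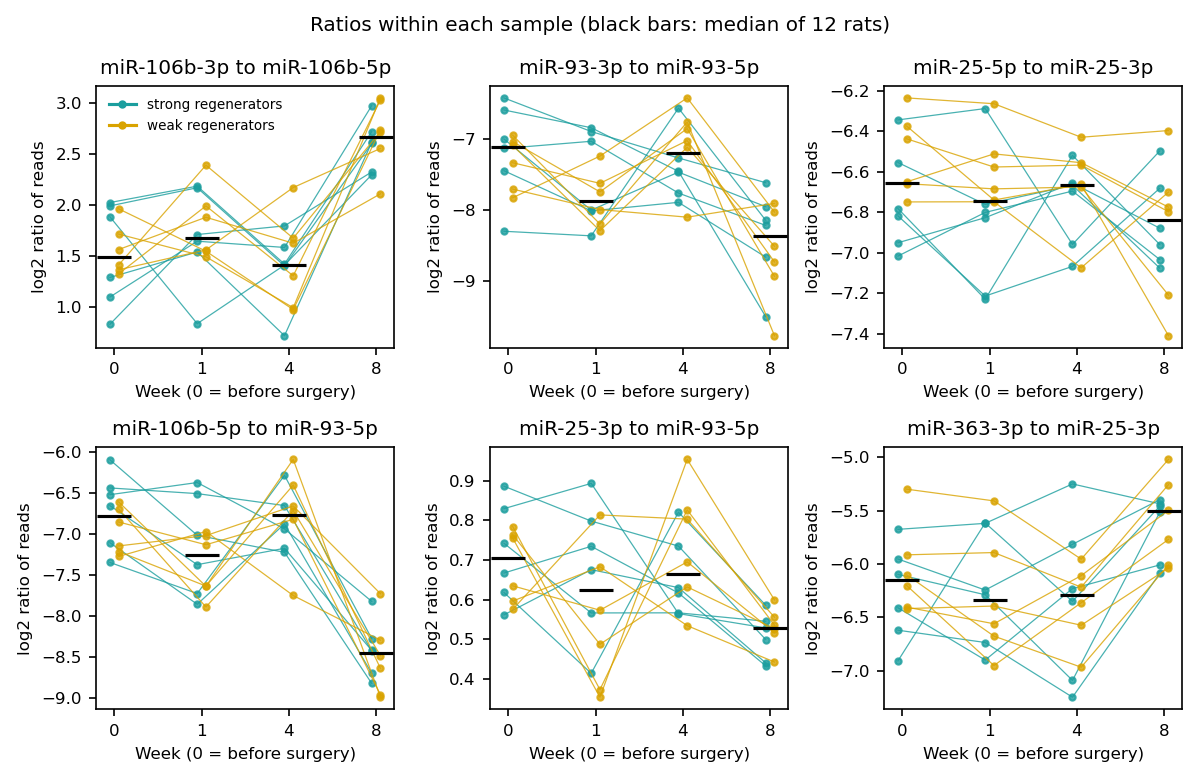
Log2 ratio of the reads of 2 strands in the same sample (vertical axis) at weeks 0, 1, 4 and 8; each line is 1 rat, teal for strong and gold for weak regenerators, and black bars are medians of 12 rats. The ratio of miR-106b-3p to miR-106b-5p rises and that of miR-106b-5p to miR-93-5p falls at week 8 without overlap with baseline, while miR-25-3p to miR-93-5p moves by −0.18.

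Within each seed family the week 8 changes lay on both sides of 0. The relatives below were counted in the same samples and are printed to show where they differ from the members outside the seed. Some are near, such as miR-92a-3p with 3 mismatches to miR-25-3p, and some are far, such as miR-32-5p with 9.
rno-miR-17-5p: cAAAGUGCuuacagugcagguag
rno-miR-20a-5p: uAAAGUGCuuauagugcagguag
rno-miR-20b-5p: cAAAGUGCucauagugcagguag
rno-miR-92a-3p: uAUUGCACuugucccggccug
rno-miR-92b-3p: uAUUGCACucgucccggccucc
rno-miR-32-5p: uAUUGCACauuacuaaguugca

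The 5 miRNAs with seed AAAGUGC made up 2.74% of miRNA reads and the 5 with seed AUUGCAC 8.19%. In the first family, week 8 log2 fold changes ran from −1.01 for miR-106b-5p through −0.72 for miR-20a-5p (SE 0.15, FDR 9.1e-05) to 0.66 for miR-93-5p. miR-17-5p was at −0.26 (FDR 0.144) and miR-20b-5p at 0.07 (FDR 0.848). In this family 2 of 5 were thus lower and 1 higher relative to the other miRNAs, beside 26.1% and 14.2% of all miRNAs tested. Scaled to UniSp2, 5 of 5 were lower, beside 77.2% of all miRNAs.

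In the second family miR-363-3p and miR-25-3p were joined by miR-92a-3p, which was higher at 0.39 (SE 0.10, FDR 0.0014). miR-32-5p was at −0.47 (FDR 0.0722) and miR-92b-3p at −0.39 (FDR 0.0571), and neither passed. Scaled to UniSp2, 5 of 5 in this family were lower too. miR-92a-3p is encoded on chromosome 15 and on the X chromosome and miR-17-5p is listed for a hairpin of each, so their reads cannot be assigned to 1 locus.

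**Figure D4:**
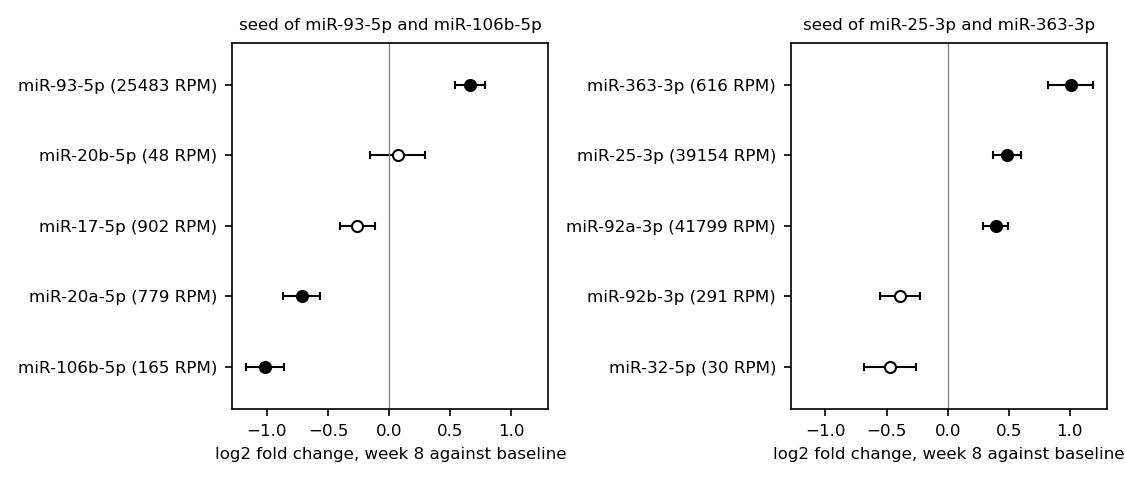
Week 8 log2 fold change against baseline (horizontal axis, edgeR, 12 rats, bars are standard errors) for miRNAs that share the seed of miR-93-5p and miR-106b-5p (left) and that of miR-25-3p and miR-363-3p (right), with mean RPM in brackets; filled points have FDR under 0.05. Both families hold values on either side of 0, from −1.01 to 0.66 and from −0.47 to 1.01, relative to the other miRNAs; scaling to UniSp2 places all 5 of each family below 0.

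Of the miR-17-92 and miR-106a-363 paralogues, 18 of 21 listed strands had a row in the counts. At week 8, 5 of the 17 tested were higher and 4 lower relative to the other miRNAs, beside 14.2% and 26.1% of all miRNAs tested. Scaled to UniSp2, 0 of 18 were higher and 14 lower, beside 77.2% of all miRNAs lower. The median of the list was 0.27, against −0.26 over all miRNAs tested. The higher ones were led by miR-92a-1-5p at 1.37 (SE 0.39, FDR 0.0031), miR-19b-3p at 0.87 (SE 0.11) and miR-18a-3p at 0.79 (SE 0.14). miR-19b-3p was also abundant at 38167 RPM.

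The lower ones were led by miR-17-1-3p at −0.84 (SE 0.23, FDR 0.0022), miR-17-2-3p at −0.75 (SE 0.24, FDR 0.0094) and miR-20a-5p at −0.72. These 3 are from the miR-17 and miR-20a hairpins. At week 1, 3 of 10 tested were higher and none lower, beside 12.5% and 9.05% of all miRNAs tested. The 3 were miR-19a-5p, miR-19b-3p and miR-92a-3p (0.28, FDR 0.0466), and with UniSp2 scaling 0 of 14 were called. At week 4, 0 of 18 passed, beside 4.19% of all miRNAs tested. An unadjusted p under 0.05 by edgeR was seen for 3 of the 18 and for 115 of all 645 miRNAs.

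Markers of red blood cells and of leukocytes changed in both directions at week 8, relative to the other miRNAs. Of 5 red blood cell miRNAs, 4 were higher at week 1 and none lower, where 12.5% of all miRNAs tested were higher and 9.05% lower. At week 8 miR-451-5p (1.04) and miR-144-5p (1.15) were higher and miR-144-3p (−0.41) was lower, where 14.2% of all were higher and 26.1% lower. None of the 5 was at 0 in the counts. Their summed level spanned 199958 to 303258 RPM before surgery. The span was 215924 to 396407 RPM a week after it and 270785 to 379557 RPM in the last samples. The log2 ratio of miR-451-5p to miR-23a-3p, a measure of haemolysis, had weekly medians of 2.30, 2.74, 2.55 and 3.03 in order of time. All 5 red cell miRNAs were lower at week 8 when scaled to UniSp2, beside 77.2% of all miRNAs, and none was called at week 1.

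Of 5 leukocyte miRNAs, none passed at week 1, where 21.6% of all miRNAs tested were called. At week 8 miR-142-3p (1.16) and miR-155-5p (0.92) were higher and miR-142-5p (−1.26), miR-150-5p (−1.52) and miR-146a-5p (−1.73) lower. Of all miRNAs tested then, 14.2% were higher and 26.1% lower. Summed, the 5 leukocyte miRNAs ranged from 15728 to 59469 RPM at baseline and from 9162 to 20855 at week 8. Scaled to UniSp2, all 5 were lower at week 8 and 2 at week 1, beside 77.2% and 13.3% of all miRNAs. The part of blood cells in the members' changes was not tested.

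Likeness of pattern was measured as the SD, over the 48 samples, of the log2 ratio of 2 counts. A small SD means that the ratio was steady, which is also so where neither miRNA changed much. Counting error enlarges it for miRNAs with few reads. It was computed against 309 miRNAs with at least 10 RPM, and is a description, since all samples share their libraries. miR-93-5p and miR-25-3p were each other's closest match, at 0.144. The next for miR-93-5p was miR-15a-5p (0.150) and for miR-25-3p miR-92a-3p (0.157).

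miR-106b-5p had no close match in its own cluster. Its closest matches were miR-30e-5p (0.23) and miR-142-5p (0.30), whereas miR-106b-3p ranked 74 (0.61) and miR-93-5p 159 (0.81), near the median of 0.80. miR-106b-3p was closest to miR-98-5p (0.26) and miR-16-5p (0.26), with miR-25-3p at rank 5 (0.29). miR-363-3p was closest to miR-30e-3p (0.30) and miR-221-3p (0.31).

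Strong and weak regenerators were compared to ask whether the level of any member goes with the amount of new bone. None of the 5 was called over all time points, and neither was any of the 645 miRNAs (0%), by edgeR or by DESeq2. At an unadjusted p under 0.05 there were 64 miRNAs by edgeR and 41 by DESeq2, and 0 of the 5 members by edgeR. At no week did the 2 groups separate for any member. The same count was not made over all miRNAs, so this does not set the members apart.

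The log2 differences over all time points, strong against weak, were small against their error. miR-106b-5p was at 0.04 (SE 0.11, 95% interval −0.17 to 0.25), miR-106b-3p at −0.03 (SE 0.10, −0.23 to 0.16) and miR-93-5p at −0.07 (SE 0.09, −0.24 to 0.10). miR-25-3p was at −0.06 (SE 0.08, −0.22 to 0.10) and miR-363-3p at −0.14 (SE 0.13, −0.39 to 0.11). These intervals count the 4 samples of a rat as independent. With the samples of each rat summed the SE were larger, and the values were 0.04 (SE 0.14) for miR-106b-5p, 0.03 (SE 0.13) for miR-106b-3p, 0.01 (SE 0.12) for miR-93-5p, 0.02 (SE 0.12) for miR-25-3p and −0.04 (SE 0.19) for miR-363-3p. The sign was thus turned for miR-106b-3p, miR-93-5p and miR-25-3p, none of them called in either fit.

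Before surgery, the lowest, median and highest levels of miR-363-3p were 252, 444 and 622 RPM in strong and 388, 476 and 897 RPM in weak regenerators. The difference was −0.29 (SE 0.26, FDR 0.769). At week 8 they were 568, 895 and 1256 RPM in strong and 532, 1008 and 1413 RPM in weak regenerators, a difference of −0.31 (SE 0.26, FDR 0.842). The ranges overlapped at both times.

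For miR-106b-5p the week 8 levels were 80.8, 86.6 and 105 RPM in strong and 66.1, 85.7 and 111 RPM in weak regenerators, and the difference was −0.06 (SE 0.23). The fall from baseline was thus seen in 6 of 6 strong and 6 of 6 weak regenerators. For miR-93-5p and miR-25-3p the week 8 differences were −0.17 (SE 0.17) and −0.20 (SE 0.17), and for miR-106b-3p −0.15 (SE 0.20). In the 4 single-week comparisons 0 of 5 members had an unadjusted p under 0.05 by edgeR, against 25 to 42 of all 645 miRNAs. Only 1 of 645 miRNAs was called in these comparisons (0.155%, at week 8), miR-203b-3p, which is no member and is named after its value was seen.

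No difference between the groups in the change from baseline was detected, with 6 rats each. Strong minus weak differences in change ran from −0.20 for miR-106b-3p to 0.26 for miR-363-3p at week 1, from −0.24 to 0.37 at week 4 and from −0.29 to −0.01 at week 8. Their SE were 0.23 to 0.36, and their 95% intervals at week 8 were wide, for example −0.87 to 0.37 for miR-106b-5p and −0.58 to 0.38 for miR-93-5p. No miRNA was called in any of the 3 interaction tests by edgeR or DESeq2, and 26 to 38 had an unadjusted p under 0.05 by edgeR.

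The 7 ratios were tested between the groups as well. The mean log2 ratio of miR-106b-3p to miR-106b-5p over a rat's 4 samples was 1.79 in strong and 1.88 in weak regenerators (exact permutation p = 0.411, adjusted 0.795). Of the 7, 0 were called, with adjusted p from 0.795 to 0.866, and 0 of 21 differences in change between the groups were called.

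Among the opposite arms, miR-25-5p had the lowest FDR. It was at −0.23 in strong against weak regenerators (SE 0.09, FDR 0.272), with medians of 304 against 371 RPM before surgery and 380 against 371 RPM at week 8. It did not pass the adjustment, and with the samples of each rat summed it was at −0.17 (FDR 0.888).

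**Figure D5:**
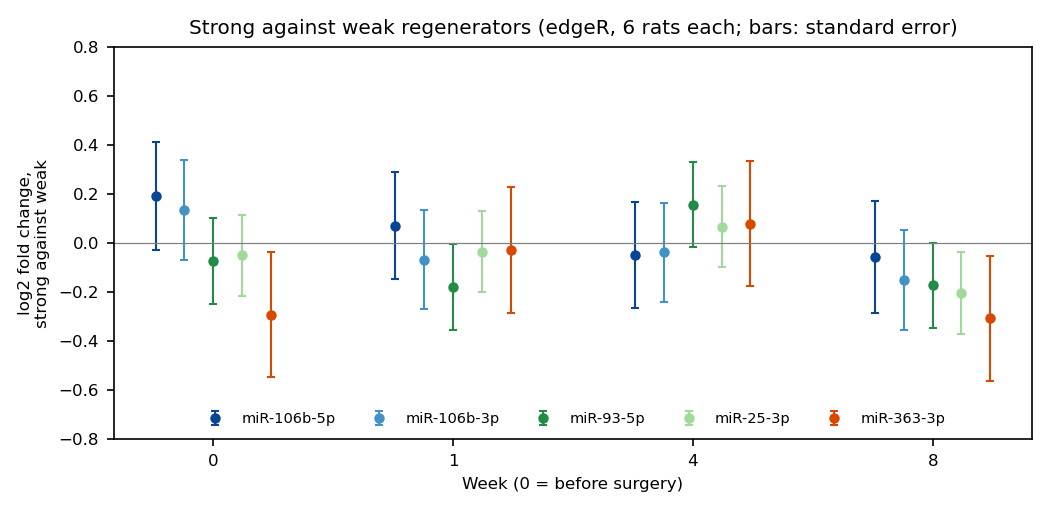
Log2 fold change of strong against weak regenerators (vertical axis) for the 5 miRNAs at weeks 0, 1, 4 and 8; points are edgeR estimates from 6 rats a group and bars are standard errors. The estimates run from −0.31 to 0.19, and none passed the test.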

How the data were processed

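The authors deposited raw read counts, whole numbers without normalization, for 645 mature miRNAs and 3 extraction spike-ins (5.15% of counts, left out of library sizes and tests) in 48 plasma samples. Per the methods, libraries came from single-adapter ligation, and reads were assigned to the rat genome and to rat miRNAs of miRBase with bowtie and miRDeep2. The submitters' processing notes name FastQC 0.11.9, MultiQC 1.10, cutadapt 3.3 and Bowtie 1.3.0. They also name a human build where the methods name the rat genome, and no coordinate of theirs is used here. The labels give 200 µl of plasma per extraction and the methods a smaller volume made up with water.

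Each sample's label gave its animal and its week; the group of a baseline sample, labelled unknown, was taken from the animal's later samples. The 5 members, the paralogue list and the marker lists for red blood cells, leukocytes, platelets and liver were chosen with earlier results of these data known.

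Counts were fitted with edgeR 4.0.16 (R 4.3.3) and its quasi-likelihood test, which the study also used, here with TMM scaling and without the rat as a term. Weekly changes used all samples. Low miRNAs were filtered on mean level where this raised the number of calls, so 232 to 645 miRNAs were tested, and adjusted p-values (FDR, Benjamini-Hochberg) were called under 0.05. Ratios used a pseudocount of 0.5 reads. Named paralogues were up to 3 in each direction per week with a mean of at least 10 RPM, and the 2 most alike miRNAs for each member. Alternatives were other scalings, filters, DESeq2 1.42.0, a block for the rat and each rat left out. The scripts were tested on simulated data. Same-numbered samples come from the same rat: deviations from the group means correlated at 0.107 within and −0.029 between rats, and 6 of 12 rats were over 0.1. Any 2 samples differed by a chi-square of at least 16.4 per degree of freedom, so none was a repeat. Fitted without the rat as a term, the edgeR p-values count the samples as independent, so spread between and within rats is mixed in them. The ratio tests over time use the spread between rats of their changes from baseline. The ratio tests between the groups use the spread between rats of their means.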

Additional observations from a re-analysis of the deposited data

Results flagged for a closer look

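Of 112 groups of 6 samples, 3 held 1 sample far from the others, where chance alone flags about 1 group in 20. miR-25-5p in the strong regenerators at week 1 had rat 21 at 279 RPM, and the next sample at 339. The log2 ratio of miR-106b-3p to miR-106b-5p in the strong regenerators at week 4 had rat 2 at 0.71, and the next at 1.40. The log2 ratio of miR-92a-3p to miR-25-3p in the weak regenerators at week 4 had rat 26 at 0.50, and the next at 0.13. None of the 3 is in a week 8 group.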

How the results depend on the processing

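Of 630 single values recomputed under alternatives other than leaving out a rat, 568 kept their direction and side of the threshold, 7 lost a call, 3 gained one and 47 that were called in neither changed sign. The 5 that reversed all came from UniSp2 scaling at week 8: miR-106b-3p −1.82, miR-93-5p −1.28, miR-25-3p −1.45, miR-363-3p −0.90 and miR-25-5p −1.65. UniSp2 scaling also called 61 miRNAs at week 4 and 499 at week 8, 0 members at week 1, and 0 miRNAs in strong against weak regenerators at week 8, where DESeq2 also called 0. At week 1, library sizes in place of TMM called 32 miRNAs, and no filter called 25 miRNAs and 1 member. Leaving out each rat gave 24 to 47 miRNAs and 1 to 2 members at week 1; strong against weak, 0 to 2 miRNAs over all time points (2 without strong regenerator 2), 0 to 1 at week 1 and 0 to 1 at week 8; and differences in change, 0 to 9 at week 4 (9 without strong regenerator 5) and 0 to 1 at week 8. Called ratio changes numbered 5 to 8 when each rat was left out and 5 with no replicate block. The 5 are the week 8 changes of both arm ratios of miR-106b and miR-93, miR-106b-5p to miR-93-5p, miR-25-3p to miR-93-5p and miR-363-3p to miR-25-3p. The paired fit, with a replicate block for the rat, called 49, 31 and 253 miRNAs at weeks 1, 4 and 8, and 2, 0 and 4 members, and changed no call on a member. Single-week comparisons of strong and weak regenerators have 1 sample a rat and no paired fit. A fit without week 8, chosen after seeing the data, called 44 miRNAs at week 1 and 31 at week 4, with the members' calls unchanged there. The cause of these shifts was not tested. Depth limits miR-363-5p most, with 0 to 4 reads a sample, then miR-93-3p and miR-106b-5p, with as few as 15 and 26.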

Other observations

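Of 4 platelet miRNAs, 1 was lower at week 1 and 1 at week 8, miR-199a-3p at −2.83. Of 4 liver miRNAs, 2 of the 3 tested were higher at week 1, and at week 8 there was 1 higher and 2 lower. These directions are relative to the other miRNAs, where 12.5% of all miRNAs tested were higher and 9.05% lower at week 1. At week 8 the shares were 14.2% and 26.1%. Scaled to UniSp2, all 4 of each list were lower at week 8, beside 77.2% of all miRNAs.

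Over 279 miRNAs with at least 10 RPM and a known sequence, Spearman's rho of the week 8 log2 fold change was −0.02 with GC content, 0.11 with length and 0.04 with mean level. These are correlations across miRNAs of the same samples, given as a description.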
